A study of Mus musculus with 2 samples.

Results

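The genes described here are the voltage-gated and glutamate-gated ion channel genes of the mouse. They were chosen by name alone: the genes of the RNA table whose symbols belong to the potassium (Kcn), calcium pore, beta and gamma (Cacn), sodium (Scn) or ionotropic glutamate receptor (Gria, Grik, Grin) series, leaving out 3 that are not described here. The rule found 141 of the 32285 genes in the table. The experiment is a single-nucleus multiome, which reads nuclear RNA and open chromatin in the same nuclei, from embryos staged at embryonic day 7 that were pooled before dissociation. There is 1 library per assay, no second condition, no control and no map from nuclei to embryos, so no test between conditions exists and each interval below covers counting error only. The title, age and protocol of both samples say embryos, whereas their tissue, cell type and strain labels name gut sections, goblet cells and RedMUC298trTg, so the genotype is uncertain. Most markers on the goblet and intestinal epithelium list were low. Muc2, a secreted gut mucin, had 17 UMIs (unique RNA molecules) over all kept nuclei, Tff3 had 6 and Clca1 had 5. Fcgbp had 39, Zg16 had 36 and Spink4 had 33. Lgals4 was higher at 267, and Vil1 at 3994 held most of the 4397 UMIs of the list.

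Voltage-gated channels open a pore when the membrane potential shifts. Their alpha subunits form the pore, and auxiliary subunits set surface level and gating. Ionotropic glutamate receptors are tetramers opened by glutamate, and the AMPA, kainate and NMDA classes are best known from synapses. Inward rectifiers and K2P channels set the resting potential in excitable and non-excitable cells alike. At gastrulation epiblast cells pass through the primitive streak to form mesoderm and definitive endoderm, beside visceral endoderm and trophoblast.

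Promoter sequences show the range of start sites in the group. RefSeq windows (assembly GRCm38.p6, 250 bases before to 50 after a start) matched 103 of the 141 genes, and 54.4% of these held 10 or more CpG dinucleotides, against 43.4% of all 32817 promoters in the table. A deposited peak lay over 51 of the 56 CpG-rich windows and over 31 of the other 47. The same shares over all promoters were not computed, so these counts do not set the channel genes apart. The first 5 below are CpG-rich starts of genes whose RNA the text turns on, and the last 2 are CpG-poor inward rectifiers. Each is written 5′ to 3′ on the strand of its gene, with CpG in capitals.
Gria4 (chr9:4796185-4796484, minus strand): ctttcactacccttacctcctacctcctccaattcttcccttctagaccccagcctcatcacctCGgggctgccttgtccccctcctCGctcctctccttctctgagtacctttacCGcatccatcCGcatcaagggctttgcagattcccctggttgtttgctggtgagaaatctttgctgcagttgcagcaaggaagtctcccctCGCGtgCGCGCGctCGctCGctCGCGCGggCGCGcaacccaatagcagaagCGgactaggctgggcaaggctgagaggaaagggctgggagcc
Kcnt2 (chr1:140245468-140245767, plus strand): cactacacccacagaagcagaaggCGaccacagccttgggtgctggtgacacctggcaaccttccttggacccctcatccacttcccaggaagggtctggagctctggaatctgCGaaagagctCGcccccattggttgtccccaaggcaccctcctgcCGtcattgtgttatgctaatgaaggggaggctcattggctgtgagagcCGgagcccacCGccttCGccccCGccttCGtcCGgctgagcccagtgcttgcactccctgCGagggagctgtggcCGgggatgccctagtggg
Kcnj3 (chr2:55435720-55436019, plus strand): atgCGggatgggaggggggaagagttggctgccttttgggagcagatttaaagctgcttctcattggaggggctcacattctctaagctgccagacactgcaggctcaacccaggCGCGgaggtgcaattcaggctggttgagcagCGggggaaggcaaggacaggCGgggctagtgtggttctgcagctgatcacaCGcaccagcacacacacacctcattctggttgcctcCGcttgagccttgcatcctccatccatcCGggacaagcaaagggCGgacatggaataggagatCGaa
Kcnh7 (chr2:63184238-63184537, minus strand): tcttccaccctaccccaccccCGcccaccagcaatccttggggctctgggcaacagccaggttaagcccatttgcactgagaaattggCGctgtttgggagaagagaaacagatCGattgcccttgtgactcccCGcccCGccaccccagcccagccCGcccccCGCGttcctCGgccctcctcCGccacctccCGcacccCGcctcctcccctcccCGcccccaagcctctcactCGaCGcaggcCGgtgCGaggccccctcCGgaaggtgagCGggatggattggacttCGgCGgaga
Kcnq5 (chr1:21961893-21962192, minus strand): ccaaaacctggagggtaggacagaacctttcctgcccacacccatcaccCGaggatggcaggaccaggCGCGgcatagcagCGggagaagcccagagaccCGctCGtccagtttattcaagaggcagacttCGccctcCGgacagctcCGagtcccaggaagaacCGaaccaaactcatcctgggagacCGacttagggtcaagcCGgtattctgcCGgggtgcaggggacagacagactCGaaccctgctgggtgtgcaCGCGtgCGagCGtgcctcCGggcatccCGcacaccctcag
Kcnj13 (chr1:87394680-87394979, minus strand): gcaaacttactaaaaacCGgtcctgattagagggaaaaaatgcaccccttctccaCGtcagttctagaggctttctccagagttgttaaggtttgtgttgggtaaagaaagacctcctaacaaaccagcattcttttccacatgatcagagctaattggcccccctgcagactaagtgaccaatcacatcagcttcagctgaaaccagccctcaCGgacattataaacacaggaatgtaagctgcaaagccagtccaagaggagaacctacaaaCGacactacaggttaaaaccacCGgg
Kcnj16 (chr11:110967783-110968082, plus strand): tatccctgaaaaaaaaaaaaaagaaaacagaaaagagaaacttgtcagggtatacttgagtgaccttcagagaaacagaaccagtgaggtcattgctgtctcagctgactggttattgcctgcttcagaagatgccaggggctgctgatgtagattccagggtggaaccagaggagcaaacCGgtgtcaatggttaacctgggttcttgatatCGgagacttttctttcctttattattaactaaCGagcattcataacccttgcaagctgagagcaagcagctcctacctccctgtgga

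These windows held 17 CpG at Gria4, 12 at Kcnt2, 10 at Kcnj3, 21 at Kcnh7 and 20 at Kcnq5, against 5 at Kcnj13 and 3 at Kcnj16. The Kcnt2 window starts from a RefSeq start 440 bp from the deposited one. No peak lay over the Kcnj16 window, but Kcnj16 did have a peak in the wider promoter window used for chromatin below. Motifs were searched on both strands. The GC box GGGCGG was present in 45.6% of the 103 windows and in 35.6% of all promoters, with 1 match at Kcnj3 and 4 at Kcnh7. The TATA box TATAAA was present in 4.85% against 13.6%, and Kcnj13 is 1 of the 5 genes with a match. The GATA core AGATAA was found in 2.91% against 11.2%. The cAMP response element TGACGTCA and the ETS motif CCGGAAGT had no match in the 103 windows and were in 1.79% and 3.89% of all promoters; no match says only that these letters are not in the windows.

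RNA was read in classes of nuclei clustered on chromatin, and chromatin in classes clustered on RNA without the channel genes. Classes carry the name of the marker list that led them and mean nuclei like that type. On chromatin they were epiblast (2146 nuclei), primitive streak (934), anterior streak, node and definitive endoderm (946, called anterior streak and node below), embryonic mesoderm (1693), haemato-endothelial progenitor (547), visceral endoderm (2046), extraembryonic ectoderm (1380) and ectoplacental cone and giant cell (210, called ectoplacental cone below), together 77.4% of the 12796 nuclei kept. Median depth was 9822.5 to 12521 UMIs per nucleus. For RNA levels, highest, lowest and elsewhere refer below to these named classes only. Clusters 7 and 8 were led by the epiblast list but had the neuronal gene Elavl3 first among their top genes and stayed unnamed, as did 3 others. All 8 genes of the neuron list were detected in epiblast, from 5.44 for Dcx to 116 for Elavl3 in CPM (UMIs scaled to the same total in each class). They were also all detected in the other named classes, except Dcx in ectoplacental cone. Rbfox3 was highest in embryonic mesoderm (40.1 CPM, against 8.47 in epiblast) and Dcx in primitive streak (11.2). The rest of the list was highest in epiblast among the named classes. That list summed to 356 CPM in epiblast, 217 in primitive streak, 112 in anterior streak and node, 115 in embryonic mesoderm and 33.6 to 61.2 in the other 4 classes; its part in the results was not tested.

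RNA of the channel genes was highest in epiblast and the classes of its descendants. Summed over the 141 genes it stood at 2591 CPM in epiblast (95% Poisson interval 2571 to 2611), 2107 in primitive streak, 2066 in embryonic mesoderm, 1884 in haemato-endothelial progenitors and 1436 in anterior streak and node. It stood at 493 CPM in visceral endoderm, 372 in ectoplacental cone and 369 in extraembryonic ectoderm, so the highest class was 7.02-fold above the lowest. Clusters 7 and 8 stood at 2222 and 2082 CPM, within the range of epiblast and the classes of its descendants. The other unnamed clusters were below that range. Shallow cluster 9 stood at 1397 CPM and cluster 17, led by the epiblast list, at 947. Cluster 13, led by the anterior streak, node and definitive endoderm list with parietal endoderm second, stood at 508. On RNA, unnamed cluster 4 (1153 nuclei), led by the epiblast list, stood at 1370 CPM against 2628 in epiblast defined on RNA. The clusters of the visceral endoderm class were unlike each other. Clusters 2 and 12 stood at 287 and 503 CPM and cluster 14 (439 nuclei) at 983, with 91.2 CPM of the neuron list against 16.3 and 19.5, and 1032 CPM of the epiblast list against 602 and 899.7. Without cluster 14 the class stood at 354 CPM, and in visceral endoderm defined on RNA the sum was 291 CPM.

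**Figure D1:**
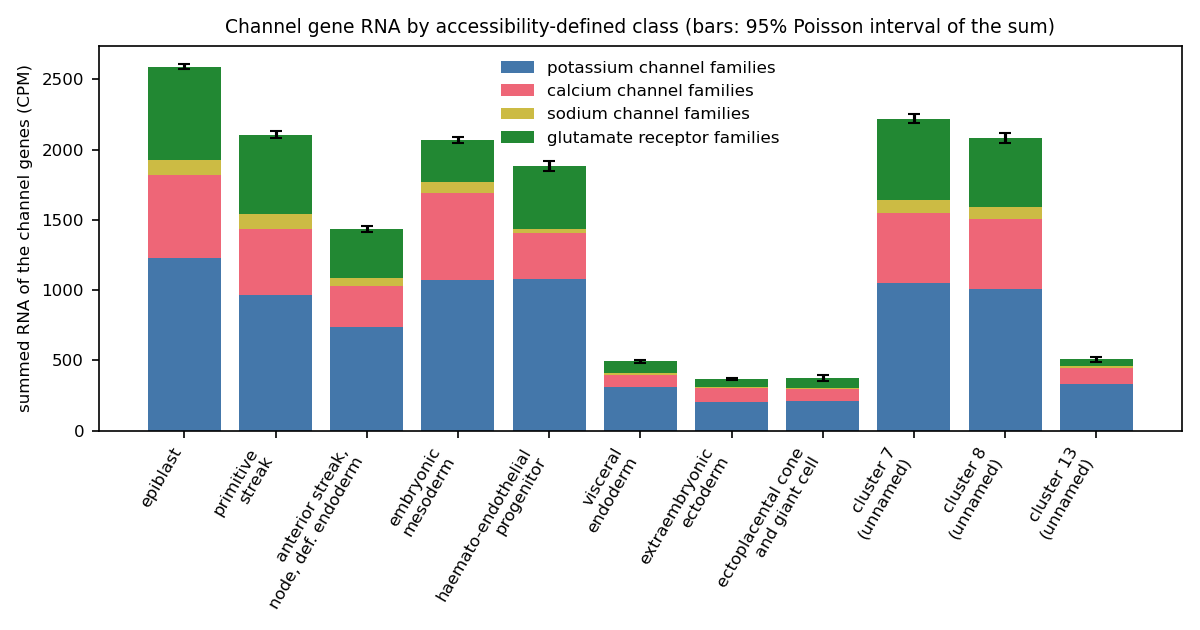
Summed RNA of the channel genes in CPM (vertical axis) in the 8 named chromatin-defined classes and in unnamed clusters 7, 8 and 13, stacked by channel type; error bars are 95% Poisson intervals of the sum. Epiblast and the classes of its descendants lie between 1436 and 2591 CPM, and visceral endoderm, extraembryonic ectoderm and ectoplacental cone between 369 and 493.

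Few genes held most of this RNA. At least 1 UMI was seen for 139 genes and none for Kcnj1 and Kcna10, and the 10 genes with most UMIs held 58.4% of 212951. The genes are long, with a median RefSeq span of 48.0 kb against 15.4 kb for all named genes. Other genes of over 200 kb (1000 genes) took 9.67% of the UMIs in epiblast, 9.87% in primitive streak, 10.0% in anterior streak and node, 10.9% in embryonic mesoderm, 10.5% in haemato-endothelial progenitors, 9.13% in visceral endoderm, 5.10% in extraembryonic ectoderm and 5.32% in ectoplacental cone. The part of gene length in the results was not tested. Per length, the short K2P channel gene Kcnk1 stood at 87.2 CPM per 100 kb of gene over all nuclei. On the same scale Kcnj3 stood at 54.2, Gria4 at 40.0, Kcnq5 at 8.36 and Cacna1c at 6.19.

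A gene was compared in a class where at least 10 UMIs were expected there, as the ratio of its level to that in all other kept nuclei, and a ratio of 2 or more, or of 0.5 or less, was counted. Of the 99 genes compared in some class, 76 were past 2-fold higher in at least 1 (35.8% of all genes compared) and 89 past 2-fold lower (47.3%), 71 of them both. Kcng2, Kcnip2, Kcnj14, Kcnk5 and Kcnu1 passed in neither direction. The genes compared had a median span of 66.0 kb and the others of 16.6 kb, so the counts speak for the longer members. 56 genes were past 2-fold higher in exactly 1 class (28.8% of all genes compared) and 20 in more (7%). The highest class stood clear of the next by its Poisson interval for 49 of the 99 (33.5% of all genes), and for 21 of them that class was epiblast (3.94%).

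Counts by class show where members stand apart from the share of all genes. In epiblast 39 of 92 members were past 2-fold higher (7.21% of all genes) and 14 lower (12.5%). In embryonic mesoderm 13 of 85 were past 2-fold higher (5.7% of all genes) and 25 lower (14.2%), and in haemato-endothelial progenitors 12 of 67 were past 2-fold higher (4.94% of all genes) and 26 lower (12%). In primitive streak 7 of 78 were past 2-fold higher (2.39% of all genes) and 7 lower (10.1%), and in anterior streak and node 7 of 75 were past 2-fold higher (4.33% of all genes) and 11 lower (9.02%). These 5 classes exceeded the share of all genes on the higher side, and embryonic mesoderm, haemato-endothelial progenitors and, by less, anterior streak and node exceeded it on the lower side too. On the lower side epiblast (14 of 92) and primitive streak (7 of 78) were near the share of all genes. The median log2 ratio of the members compared was 0.76 in epiblast and 0.36 in primitive streak, but -0.39 in embryonic mesoderm and -0.67 in haemato-endothelial progenitors, against -0.05, -0.03, -0.05 and -0.05 over all genes. In visceral endoderm 10 of 99 were past 2-fold higher (11.1% of all genes) and 74 lower (24.1%), in extraembryonic ectoderm 6 of 86 were past 2-fold higher (6.85% of all genes) and 59 lower (24.6%), and in ectoplacental cone 3 of 54 were past 2-fold higher (5.13% of all genes) and 41 lower (20.4%). There the lower side exceeded the background and the higher side was near it. Without cluster 14, 7 of 89 members were higher in visceral endoderm (11.3% of all genes) and 69 lower (25.2%). In cluster 7 15 of 67 were past 2-fold higher (2.44% of all genes) and 7 lower (8.7%), and in cluster 8 19 of 67 were past 2-fold higher (3.96% of all genes) and 8 lower (10.3%).

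**Figure D2:**
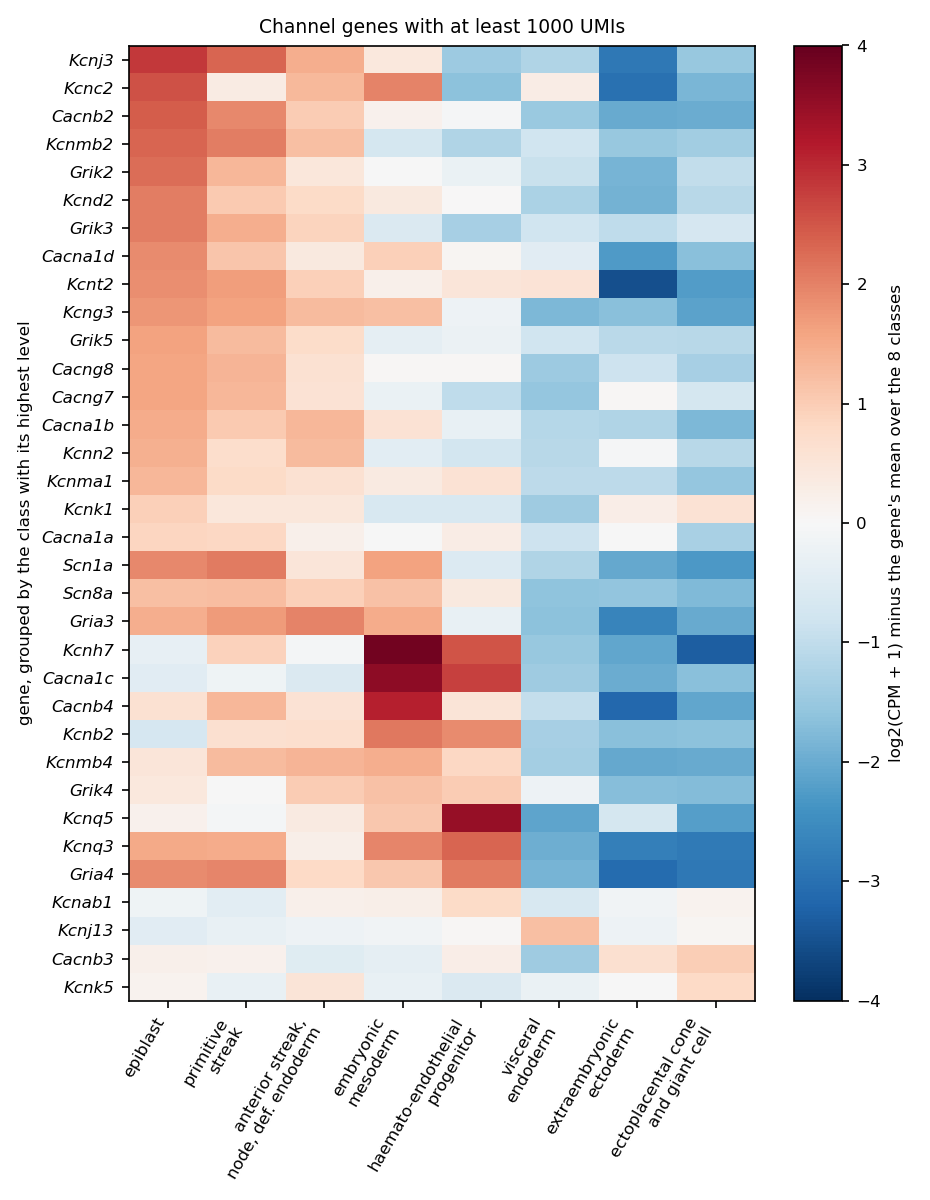
Heat map of 34 of the 35 channel genes with at least 1000 UMIs (vertical) in the 8 named chromatin-defined classes (horizontal); colour is log2(CPM + 1) minus the gene's mean over the classes, and genes are grouped by the class of their highest level. The largest block is highest in epiblast; Kcnh7 and Cacna1c are highest in embryonic mesoderm and Kcnq5 in haemato-endothelial progenitors.

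AMPA receptor subunits carry fast excitatory currents, and 3 of the 4 were compared. Gria4 (chr9:4417893-4796234, mm10) stood at 341 CPM in haemato-endothelial progenitors, 313 in primitive streak, 295 in epiblast, 169 in embryonic mesoderm, 138 in anterior streak and node, 21.0 in visceral endoderm, 10.1 in ectoplacental cone and 8.45 in extraembryonic ectoderm. It was the channel gene with most UMIs, and it separated epiblast and the classes of its descendants from the other 3. At least 1 UMI was seen in 83.9% of epiblast nuclei and 7.03% of extraembryonic ectoderm nuclei, at median depths of 10877.5 and 12319.5 UMIs. Thinned to 5000 UMIs per nucleus (2093 and 1264 nuclei were deep enough), the shares were 68.4% and 3.09%. Gria1 was narrower, with 17.3 CPM in epiblast and 0.163 to 4.61 in the other classes, a ratio of 6.46 to all other nuclei (5.58 to 7.48). Gria3 was highest in anterior streak and node at 50.3 CPM (2.57-fold, 2.33 to 2.83), followed by primitive streak at 41.4, embryonic mesoderm at 35.5 and epiblast at 34.6.

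Kainate receptor subunits form a separate class of glutamate-gated channel, and 4 of the 5 were past 2-fold higher in epiblast (7.21% of all genes and 39 of 92 members). Grik3, with the most UMIs among them, stood at 186 CPM in epiblast, 124 in primitive streak, 82.3 in anterior streak and node and 16.9 to 29.6 elsewhere. NMDA receptor subunits, which need a co-agonist beside glutamate, summed over the 6 described here, which are not the whole family, to 32.1 CPM in haemato-endothelial progenitors, 28.0 in epiblast and 10.9 to 17.3 elsewhere. Their leading members had different highest classes. Grin2a stood at 17.9 CPM in epiblast and 0.535 to 6.96 elsewhere. Grin3a stood at 21.9 CPM in haemato-endothelial progenitors (8.17-fold, 6.65 to 9.98), 6.43 in embryonic mesoderm and 0.631 to 3.81 elsewhere; it overlaps the coding gene Ppp3r2, so its value is uncertain.

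Calcium channel pore genes differed in their highest class. Cacna1c (chr6:118587240-119197384), the L-type pore of heart and smooth muscle, stood at 206 CPM in embryonic mesoderm (199 to 212) and 114 in haemato-endothelial progenitors, and at 3.42 to 14.5 in the other 6 classes. Its ratio in embryonic mesoderm was 15.1 (14.3 to 16.0), and it overlaps the coding gene Dcp1b. A UMI was seen in 60.4% of embryonic mesoderm and 3.41% of extraembryonic ectoderm nuclei, or 47.4% and 1.58% when thinned. Of the cardiomyocyte list in embryonic mesoderm, Myl7 stood at 39.5 CPM, Actn2 at 13.9, Ttn at 4.41, Tnnt2 at 0.708, Nkx2-5 at 0.381 and Myh6 at 0.163; the part of such cells was not tested. Cacna1d, another L-type pore, overlaps the coding genes Chdh and Dcp1a. Of the named classes it was highest in epiblast at 127 CPM, with 74.3 in primitive streak, 66.3 in embryonic mesoderm and 6.15 to 44.3 in the others. Its higher level in the small parietal endoderm cluster is given at the end. Cacna1e, an R-type pore, stood at 17.3 CPM in haemato-endothelial progenitors (11.2-fold, 8.75 to 14.2) and 0.315 to 4.51 elsewhere.

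Beta subunits bring calcium channel pores to the membrane, and their members also differed by class. Cacnb2 stood at 241 CPM in epiblast, 168 in primitive streak, 88.7 in anterior streak and node and 10.0 to 48.9 elsewhere. Cacnb4 stood at 220.4 CPM in embryonic mesoderm (7.93-fold) and 1.93 to 63.6 elsewhere. Cacnb3 was highest in ectoplacental cone at 25.5 CPM (2.24-fold, 1.77 to 2.80), followed by extraembryonic ectoderm at 19.7 and lowest in visceral endoderm at 3.98. The gamma family includes TARPs, partners of AMPA receptors. Cacng7 stood at 37.5 CPM in epiblast and 3.46 in visceral endoderm, and Cacng4 at 10.1 in anterior streak and node (3.04-fold, 2.42 to 3.78).

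Sodium channel pore subunits, which carry the upstroke of action potentials in nerve and muscle, summed to 100.2 CPM in epiblast, 99.3 in primitive streak, 73.7 in embryonic mesoderm, 53.2 in anterior streak and node, 31.1 in haemato-endothelial progenitors and 6.62 to 11.2 elsewhere. Scn1a led them. It stood at 46.1 CPM in primitive streak (42.3 to 50.3) and 41.5 in epiblast (39.1 to 44.1), and these intervals overlapped. All 6 compared pore genes were past 2-fold lower in visceral endoderm (24.1% of all genes and 74 of 99 members) and in extraembryonic ectoderm (24.6% and 59 of 86).

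Voltage-gated potassium channel subunits were the largest family, with 38 members and 23.3% of the UMIs. Like the NMDA sum, the sum of this family leaves out genes that are not described here, so the order of classes holds for these members and not for the whole family. They summed to 814 CPM in haemato-endothelial progenitors and 799.7 in embryonic mesoderm, above 472 in epiblast. Kcnh7, an ERG-type channel, stood at 359 CPM in embryonic mesoderm (351 to 368), 143 in haemato-endothelial progenitors, 46.1 in primitive streak, 22.7 in anterior streak and node, 18.9 in epiblast and 1.58 to 7.82 elsewhere. Its ratio in embryonic mesoderm was 15.9 (15.2 to 16.6), and it overlaps the coding gene Gca. Kcnh7 UMIs were seen in 71.1% of embryonic mesoderm and 1.43% of ectoplacental cone nuclei, at median depths of 10356 and 12233; thinned, the mesoderm share was 62.5%. Kcnq5, an M-current channel, stood at 393 CPM in haemato-endothelial progenitors (12.2-fold, 11.6 to 12.9), 73.3 in embryonic mesoderm and 6.62 to 44.4 in the other named classes. Its level in the small parietal endoderm cluster was higher and is given at the end. Kcnq3, which pairs with other M-current subunits, stood at 180.4 CPM in haemato-endothelial progenitors, 141 in embryonic mesoderm, 103 in epiblast and 99.9 in primitive streak.

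Other Kv members had different highest classes. Kcnc1, a fast delayed rectifier, stood at 6.81 CPM in embryonic mesoderm and 2.80 in haemato-endothelial progenitors, with a ratio of 13.1 in the former (9.68 to 18.0). Kcnd3, an A-type channel, stood at 11.9 and 8.22 CPM in these classes and 0.267 to 4.01 elsewhere. Kcnh5, an EAG-type channel, marked epiblast and primitive streak at 11.7 and 11.1 CPM, with no UMI in ectoplacental cone. Kcnc2, 1 of the 10 members with most UMIs, stood at 111 CPM in epiblast, 75.0 in embryonic mesoderm, 45.7 in anterior streak and node, 23.2 in primitive streak, 22.5 in visceral endoderm, 5.10 in haemato-endothelial progenitors, 4.42 in ectoplacental cone and 1.44 in extraembryonic ectoderm. Kcns3, a silent subunit that modifies Kv2 channels, stood at 16.1 CPM in anterior streak and node (3.67-fold, 3.06 to 4.37) and 11.6 in embryonic mesoderm.

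**Figure D3:**
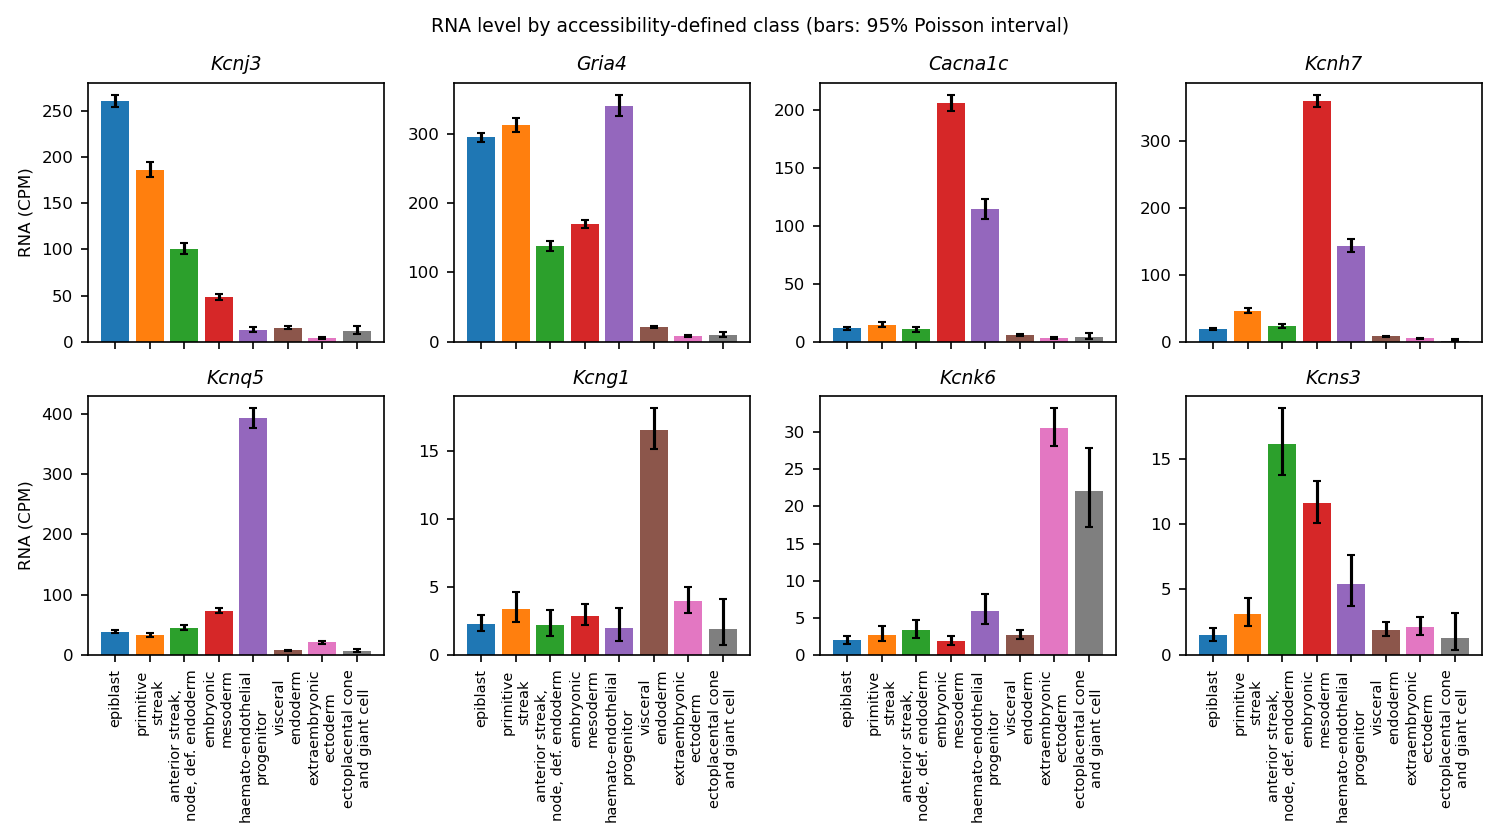
RNA level in CPM (vertical axes, separate scales) of 8 channel genes in the 8 named chromatin-defined classes; error bars are 95% Poisson intervals. Kcnj3 is highest in epiblast at 261 CPM, Cacna1c and Kcnh7 in embryonic mesoderm at 206 and 359, Kcnq5 in haemato-endothelial progenitors at 393, Kcng1 in visceral endoderm at 16.6 and Kcnk6 in extraembryonic ectoderm at 30.6.

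Among the inward rectifiers Kcnj3, a subunit of G-protein-gated channels, stood at 261 CPM in epiblast, 186 in primitive streak, 101 in anterior streak and node, 48.4 in embryonic mesoderm and 4.17 to 15.2 elsewhere. A Kcnj3 UMI was seen in 77.7% of epiblast and 3.26% of extraembryonic ectoderm nuclei, or 58.6% and 1.19% when thinned. Kcnj13, a rectifier of transporting epithelia, stood at 18.1 CPM in visceral endoderm (2.92-fold, 2.60 to 3.27) and 5.08 to 7.89 elsewhere; it overlaps the coding gene Gigyf2, and its value is uncertain. The sodium-activated channel Kcnt2 stood at 274 CPM in epiblast, 236 in primitive streak and 109 in visceral endoderm, against 5.56 in extraembryonic ectoderm. Within visceral endoderm Kcnt2 stood at 72.6, 154 and 149.6 CPM in clusters 2, 12 and 14, so its level there did not rest on cluster 14. Kcnmb2, a BK channel partner, stood at 20.5 CPM in epiblast and 16.6 in primitive streak (2.37-fold); in primitive streak defined on RNA its log2 ratio was -0.051. Kcnmb4, of the same family, stood at 34.3 CPM in embryonic mesoderm, 32.3 in anterior streak and node and 29.5 in primitive streak.

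Outside epiblast and the classes of its descendants, counts of members past 2-fold higher were near the share of all genes, as given above. The members high there were mostly at low levels. Kcng1, a silent Kv2 partner, stood at 16.6 CPM in visceral endoderm (5.79-fold, 5.02 to 6.67) and 1.89 to 3.96 elsewhere. It was seen in 18.8% of visceral endoderm and 1.90% of ectoplacental cone nuclei, at median depths of 12521 and 12233. Kcnn1, a calcium-activated SK channel, stood at 6.05 CPM in visceral endoderm (4.56-fold, 3.65 to 5.70), with 16.1 in cluster 12, 2.13 in cluster 2 and 4.40 in cluster 14. The K2P channel Kcnk6 stood at 30.6 CPM in extraembryonic ectoderm (9.36-fold, 8.24 to 10.7), 22.1 in ectoplacental cone and 1.85 to 5.92 elsewhere, and it marked the trophoblast classes most clearly. Its share of nuclei was 30.1% in extraembryonic ectoderm and 1.89% in embryonic mesoderm, or 13.5% and 0.851% when thinned. Kcnk1, of the same family, was broader, from 9.72 CPM in visceral endoderm to 41.6 in ectoplacental cone and 53.9 in epiblast. In extraembryonic ectoderm the A-type channel Kcnd1 stood at 9.36 CPM (2.91-fold, 2.42 to 3.48).

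Chromatin at the starts of these genes was widely open, with a peak from 1000 bp before to 100 bp after a deposited start for 129 of the 141 genes (91.5%, against 66.3% of all genes). Over the RNA-defined classes 20 promoters were past 2-fold higher somewhere (15.7% of all genes) and 91 lower (34.5%), so the higher side was at the background and the lower side above it. In epiblast 12 of 129 promoters were past 2-fold higher (3.8% of all genes) and 1 lower (5.41%). In primitive streak 0 of 125 were past 2-fold higher (0.596% of all genes) and 0 lower (3.29%), in anterior streak and node 2 of 125 were past 2-fold higher (1.55% of all genes) and 2 lower (3.3%), in embryonic mesoderm 4 of 127 were past 2-fold higher (2.46% of all genes) and 3 lower (5.37%), and in haemato-endothelial progenitors 2 of 122 were past 2-fold higher (1.52% of all genes) and 3 lower (4.73%). In these 4 classes the higher side was near the share of all genes and the lower side was below it, on small counts. In visceral endoderm 1 of 126 were past 2-fold higher (4.08% of all genes) and 60 lower (20%), and in parietal endoderm, a class of 161 nuclei named on RNA, 0 of 101 were past 2-fold higher (0.805% of all genes) and 43 lower (12.9%). In extraembryonic ectoderm 1 of 126 were past 2-fold higher (3.27% of all genes) and 51 lower (18.3%), and in ectoplacental cone 1 of 116 were past 2-fold higher (1.98% of all genes) and 56 lower (17.1%).

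The highest promoter ratios are set here beside the RNA ratios of the same genes. The Cacna1c promoter was 5.30-fold higher in embryonic mesoderm (4.11 to 6.83) and 6.05-fold in haemato-endothelial progenitors (4.51 to 8.02), the classes where its RNA was highest. The promoter of Kcnj9, a partner of Kcnj3, was 3.27-fold higher in epiblast, where its RNA stood at 1.54 CPM with a log2 ratio of 2.32. The promoter of Kcnk16, a K2P channel, was 5.51-fold higher in anterior streak and node (4.63 to 6.54). Its RNA, with 12 UMIs seen there, was not compared because fewer than 10 were expected. The promoter of Kcnj14, an inward rectifier, was 3.21-fold higher in visceral endoderm, where its RNA log2 ratio was 0.22. The reverse was seen for Cacna1e in haemato-endothelial progenitors, with a promoter log2 ratio of -0.71, for Kcnn1 in visceral endoderm (-0.34) and for Kcns3 in anterior streak and node (-0.11), all past 2-fold higher in RNA. Visceral endoderm defined on RNA had 1283 nuclei. RNA cluster 6 (933 nuclei), led by the visceral endoderm list, stayed unnamed and counted among the other nuclei. So the nuclei read for Kcnn1 RNA and for its promoter need not be the same.

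Across members the RNA and promoter log2 ratios of a class were related, given here as a description since genes share nuclei and depth. Spearman's rho was 0.59 in embryonic mesoderm (82 genes), 0.57 in epiblast (89), 0.57 in visceral endoderm (94), 0.53 in extraembryonic ectoderm (83), 0.43 in primitive streak (75), 0.43 in haemato-endothelial progenitors (60), 0.36 in ectoplacental cone (47) and 0.32 in anterior streak and node (72). Over all genes it ran from 0.24 to 0.55. The median promoter log2 ratio of the compared members was 0.47 in epiblast and -0.94 in visceral endoderm, against -0.04 and 0.06 over all genes. The counts that follow therefore also carry this shift of the whole set. They cover only genes compared in both RNA and promoter, so some are smaller than the RNA counts by class above. Of the 36 members with RNA past 2-fold higher in epiblast, 36 had a promoter ratio above 1, against 1032 of 1111 among all genes. Of the 70 with RNA past 2-fold lower in visceral endoderm, 68 had a promoter ratio below 1, against 3059 of 3672. In extraembryonic ectoderm this held for 53 of 56 members with lower RNA (2857 of 3461 among all genes) and in ectoplacental cone for 32 of 35 (1698 of 2193). In embryonic mesoderm 12 of the 13 with higher RNA had a promoter ratio above 1 (646 of 831 among all genes). Some groups followed less closely. In epiblast 5 of the 14 members with RNA past 2-fold lower had a promoter ratio below 1 (1187 of 1858 among all genes), in primitive streak 2 of 6 (864 of 1332), and in visceral endoderm 6 of the 10 with higher RNA had a promoter ratio above 1 (1409 of 1702).

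**Figure D4:**
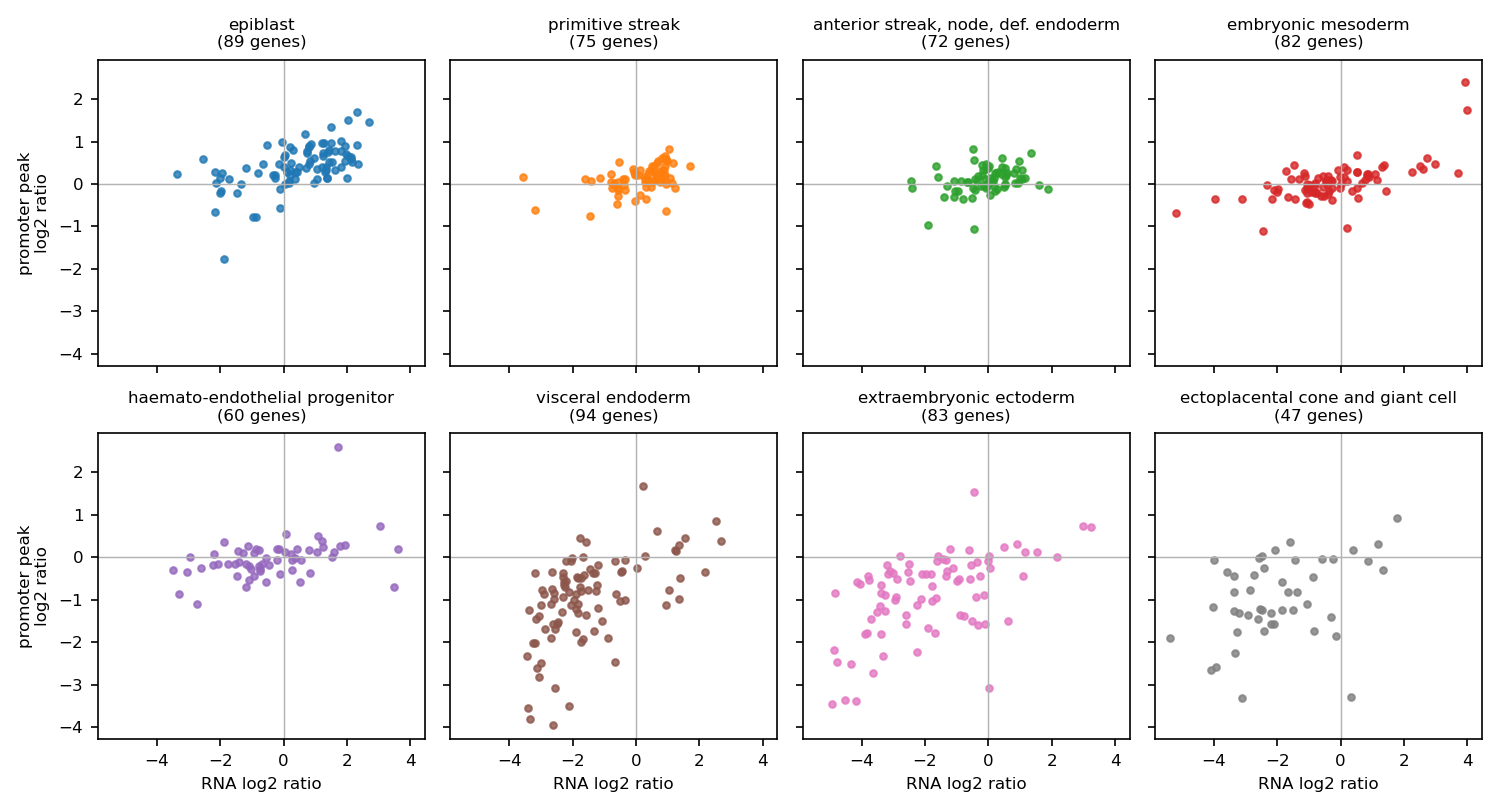
Promoter peak log2 ratio (vertical axes) against RNA log2 ratio (horizontal axes) of the channel genes in the 8 classes named on both assays; each point is 1 gene, as a class against all other nuclei. Points in visceral endoderm, extraembryonic ectoderm and ectoplacental cone lie mostly below 0 on both axes. The 36 epiblast genes with RNA past 2-fold higher and a compared promoter lie above 0 on the promoter axis.

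For some genes the leading peak away from the start had a higher ratio than the promoter. The leading peak was picked as the highest ratio in the gene or within 50000 bp of its starts. It also needed at least 50 counts in the class. This choice favours high ratios, so the comparison with the promoter is a description only. At Kcnq5 the promoter log2 ratio in haemato-endothelial progenitors was 0.20, while the peak chr1:21938245-21939025, inside the gene 22946 bp after a start, was 22.5-fold higher (13.6 to 37.7) on 72 counts. At Cacna1c 14 of the 32 peaks with at least 50 counts in embryonic mesoderm were past 2-fold higher there (19.8% of all such peaks), led by chr6:119177143-119177962, 18866 bp into the gene (12.0-fold, 8.91 to 16.2). At Kcnh7 the leading peak was at the promoter, chr2:63184961-63185425, 906 bp before the start (6.10-fold, 5.10 to 7.28). In extraembryonic ectoderm the leading peaks lay outside the genes. They were chr7:29216264-29216851, 15958 bp from the Kcnk6 start (25.5-fold, 15.8 to 42.5), and chrX:7805799-7806718, 16031 bp before the Kcnd1 start (56.5-fold, 39.9 to 81.7), beside promoter log2 ratios of 0.71 and 0.13. The Gria3 peak chrX:41406666-41407506 was 10.1-fold higher in anterior streak and node, and the Kcng1 peak chr2:168272015-168272797 9.49-fold in visceral endoderm. Kcnn1 had no such peak in visceral endoderm, with 0 of 23 past 2-fold (34.9% of all peaks with at least 50 counts there). That class is the RNA-defined one, which leaves out unnamed RNA cluster 6, so its nuclei may differ from those read for Kcnn1 RNA. Coordinates are mm10; exons and introns were not used here, and which gene a distant peak acts on was not tested.

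**Figure D5:**
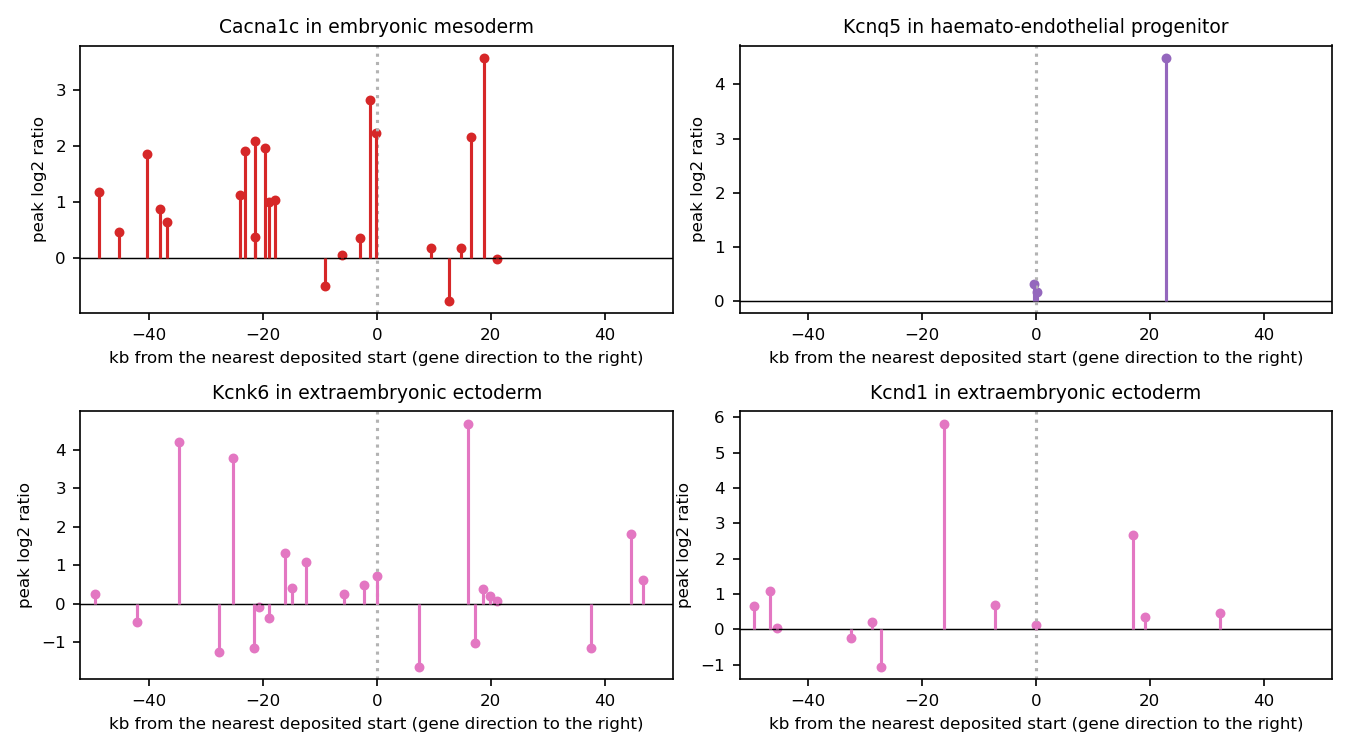
Log2 ratio of each compared peak (vertical axes) against its distance in kb from the nearest deposited start (horizontal axes) for Cacna1c in embryonic mesoderm, Kcnq5 in haemato-endothelial progenitors and Kcnk6 and Kcnd1 in extraembryonic ectoderm. The highest peaks stand away from the starts in all 4 panels.

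Levels over 18 chromatin clusters group the members with at least 1000 UMIs into shared patterns, described by Pearson's r with no test, since clusters share a library. Kcnj3 was most like Cacnb2 (0.98), Gria4 most like Kcnq3 (0.98), Kcnh7 most like Cacna1c (0.93) and Kcnq5 most like Kcnh7 (0.87). Kcnj13 stood alone, with Kcnk5 nearest at 0.07.

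A further list of 35 channel and channel partner genes had 32 compared, 21 past 2-fold higher (35.8% of all genes) and 30 past 2-fold lower (47.3%) in some class. In epiblast the sodium leak channel Nalcn was 7.87-fold higher (7.19 to 8.61) and the synaptic scaffold gene Dlg2 4.41-fold. In haemato-endothelial progenitors the calcium channel partner Cacna2d3 was 6.37-fold higher and the AMPA receptor partner Shisa9 5.47-fold. The endolysosomal channel Tpcn1 was 7.04-fold higher in visceral endoderm, at 129 CPM.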

How the data were processed

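Nuclear RNA and chromatin accessibility were read in 1 library each from the same nuclei. The authors deposited a count table of UMIs per gene and of counts per peak; per the submitters' processing notes they used Cell Ranger ARC 2.0.0 and mm10. The aligner, the peak caller and the handling of strand and introns are not given in the sources used here, so reads of overlapping genes cannot be told apart. Peak intervals rest on fragments, since even numbers make up 86.4% of the entries above 0.

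Nuclei were kept from 1000 UMIs, 500 detected genes and 1000 peak counts upward, if mitochondrial UMIs did not exceed 20%; Scrublet (scanpy 1.11.5) calls removed 1154 barcodes as doublets. Leiden clusters (resolution 1) took the name of the marker list with the highest mean log2 ratio, at 0.5 or more with at least 3 genes raised 1.5-fold, unless another list led the top 10 genes or came close; the neuron and cardiomyocyte lists named no cluster. This scoring was set with the data in view. Genes named by rule are the 3 highest RNA ratios per class, the 10 with most UMIs, the 2 highest promoter ratios per class, 5 with higher RNA and a lower promoter and the leader of each family; Kcnj1, Kcna10 and the genes past in neither direction were named after their values were seen. Some genes the rule names are not reported here. The printed promoters were chosen in the same way. The members and all lists were chosen with earlier results of these data known. Intervals are exact at 95%. The counting was tested on simulated data. Alternatives varied nucleus filters, resolution, the low-value filter, scaling, fold, promoter window and the assay defining classes.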

Additional observations from a re-analysis of the deposited data

How the results depend on the processing

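Counts of genes with RNA past 2-fold in some class ran from 63 to 95 higher (76 as reported) and from 76 to 114 lower (89) under the alternatives that kept the 2-fold limit; at 3-fold they were 40 and 81. Promoter counts ran from 16 to 23 higher (20) and from 76 to 94 lower (91). The highest over the lowest summed level, 7.02 as reported, was 6.30 with doublet calls kept, 8.59 with at least 2000 UMIs and peak counts, 8.08 at resolution 0.5, 6.70 at resolution 2, 9.02 with classes from the other assay and 7.31 without cluster 14, which was chosen after seeing the data. Epiblast was the highest class under each of these, and the lowest was extraembryonic ectoderm, ectoplacental cone or visceral endoderm; the cause was not tested. TMM scaling gave 7.07, and its factors over 0.1 in size on the log2 scale were -0.17 in visceral endoderm and -0.12 in extraembryonic ectoderm for RNA and 0.14 in ectoplacental cone for promoters. Direction reversed for 1 named value, the RNA log2 ratio of Kcnmb2 in primitive streak, from 1.25 to -0.051 with classes from the other assay. The cause was not tested. Without reversal, 50 of 205 comparisons of RNA log2 ratios and 35 of 55 of summed levels moved. So did 18 of 71 comparisons of RNA counts past the fold higher and 9 of 71 past the fold lower. No paired analysis was possible because each assay has 1 library. Variation between embryos or libraries could not be measured, and with 210 nuclei only 54 genes were compared in ectoplacental cone.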

Other observations

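The parietal endoderm had only 26 nuclei on chromatin, below the 100 needed for a class. In these nuclei Kcnq5 stood at 668 CPM (226 UMIs, seen in 18 nuclei) and Cacna1d at 562 CPM (190 UMIs, seen in 24 nuclei), while the summed channel RNA was 1650 CPM. Parietal endoderm defined on RNA (161 nuclei) summed to 577 CPM.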
